A study of Mus musculus with 2 samples.

Results

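The genes encoded by the mitochondrial genome and 4 of their nuclear copies were examined in total RNA from mouse embryonic intestine. The members are the 37 genes whose symbol starts with mt- and the nuclear pseudogenes Gm28437, Gm10925, Gm28661 and Gm29216, together 41 of the 43346 genes in the deposited tables. The rule names them by symbol and uses no threshold. The mt- genes comprise 13 mRNA genes, 2 rRNA genes and 22 tRNA genes. The libraries are 2 replicates of whole intestine from B6NCrl embryos at embryonic day 14.5, replicate 2 collected on day 15 and replicate 1 on day 17 of the same month. No genetic change or treatment is given for either library, so the data hold 1 group and no contrast between conditions. The labels describe the intestine of a single pup for each library under the same donor record, and do not state how the replicates otherwise differ. Xist and a Y-linked gene, given further on, differ as between embryos of different sex. The spread between the libraries may be biological as well as technical, and these parts cannot be told apart. The input was 10 ng of RNA above 200 nucleotides.

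The mitochondrial genome is a small circular DNA held in many copies per cell, and every protein it encodes is a subunit of the respiratory chain or of ATP synthase. Both of its strands are transcribed into long precursor RNAs, which are cut mostly at the tRNAs lying between the other genes. Stretches of mitochondrial DNA have also entered the nuclear chromosomes during evolution. In the nucleus TGA is a stop codon, whereas mitochondria read it as tryptophan, and such copies are classed as pseudogenes.

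The 4 pseudogenes lie side by side on the minus strand of chromosome 1 of mouse assembly GRCm38 (the assembly also called mm10), in the order of the mitochondrial genes they copy. Gm29216 (chr1:24615706-24616197, 492 bases) copies the 3′ part of mt-Co1, Gm28661 (chr1:24614885-24615565, 681 bases) copies mt-Co2, Gm10925 (chr1:24613974-24614651, 678 bases) copies mt-Atp6 and Gm28437 (chr1:24613189-24613971, 783 bases) copies mt-Co3. Gm28661, Gm10925 and Gm28437 were 100% identical to the mitochondrial sequence over their whole annotated length, and ended 3, 3 and 1 bases short of the mitochondrial gene. The following lines show where the annotated sequences of each pair differ, taken from GENCODE M21 transcripts of GRCm38. Bases of chromosome 1 outside the annotated pseudogenes were not compared. Capitals in the mitochondrial 3′ ends mark the bases that the pseudogene annotation lacks, TAA for mt-Co2 and mt-Atp6, where it is the stop codon, and a last T for mt-Co3. In mt-Co1 and Gm29216 capitals mark the bases that differ.
mt-Co3 (chrM:9354-9390, plus strand): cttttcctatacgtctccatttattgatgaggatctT
Gm28437 (chr1:24613189-24613224, minus strand): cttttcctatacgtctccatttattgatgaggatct
mt-Co2 (chrM:7658-7696, plus strand): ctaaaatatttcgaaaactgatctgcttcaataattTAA
Gm28661 (chr1:24614885-24614920, minus strand): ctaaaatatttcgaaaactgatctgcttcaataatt
mt-Atp6 (chrM:8569-8607, plus strand): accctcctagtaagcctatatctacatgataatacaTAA
Gm10925 (chr1:24613974-24614009, minus strand): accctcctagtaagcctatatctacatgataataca
mt-Co1 (chrM:6381-6416, plus strand): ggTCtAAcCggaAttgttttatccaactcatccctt
Gm29216 (chr1:24616162-24616197, minus strand): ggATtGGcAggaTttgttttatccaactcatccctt

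Gm29216 was 98.8% identical to mt-Co1 over its 492 bases. Its 6 differences were T3A, C4T, A6G, A7G, C9A and A13T, with the mitochondrial base first and positions counted from 1 at the 5′ end of the pseudogene. All of them lie in its first 13 bases, and from there on the sequences were the same up to the shared TAA stop codon. The other 3 pseudogenes hold no base that the mitochondrial gene lacks.

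The nuclear copies hold in-frame TGA codons, which a mitochondrial ribosome reads as tryptophan and a cytosolic one as stop. Gm28437 had 12 in 261 codons, with the first at codon 16, Gm28661 had 5 in 227, Gm29216 5 in 164 and Gm10925 3 in 226. The first of Gm28437 is in capitals in the line that follows, which shows the reading frame of a copy of cytochrome oxidase subunit 3 interrupted near its start.
Gm28437 (chr1:24613909-24613941, minus strand): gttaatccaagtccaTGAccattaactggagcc

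Shared sequence was measured as windows of 100 bases, since in the deposited tables the length of each measured gene exceeded its effective length (the number of positions at which a fragment could start) by an amount that corresponds to fragments of 100 bases. Of the 2238 windows in the 4 pseudogenes, 2225 occurred exactly in the mitochondrial genome, or 99.4%. The remaining 13 all lie in Gm29216. From the mitochondrial side, mt-Co3 had 1 window of 685 found in no nuclear transcript, mt-Atp6 had 3 of 582 and mt-Co2 had 3 of 585. The mitochondrial sequence was pieced together from its annotated genes and covered 15365 of the first 15422 bases, so the control region is not included.

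Other nuclear genes also carry such windows. In all 10 genes outside the mitochondrial genome shared at least 1 window with it, the 4 pseudogenes and 6 that are not members. Of these 6, 3 belong to the same block on chromosome 1, namely Gm28438, a copy of mt-Nd3 with the single difference T3C, Gm10222, a copy of mt-Nd4l, and Gm28439, a copy of the first 876 bases of mt-Nd4. The 7 pseudogenes spanned 4663 bases (chr1:24611535-24616197), and the stretches they copy spanned 4662 bases of the mitochondrial genome (chrM:6381-11042). The pseudogenes themselves summed to 4149 bases, and the bases between them were not compared. The other 3, Gm13341, Gm13340 and Gm13339, lie on chromosome 2 and stayed low. Gm13341 was at 1.12 TPM in replicate 2 and 1.43 TPM in replicate 1, and Gm13340 at 0.51 and 0.93 TPM in replicates 2 and 1. TPM is transcript abundance per length as a share of all transcripts in a library, scaled to a fixed total.

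The gene tables held 34042802 estimated counts over all features in replicate 2 and 34504419 in replicate 1, of which 32371363 and 32938592 were in genes. The counts of 17802 genes differed between the libraries by more than sampling noise, with chi-square at 15.3 times its degrees of freedom. Markers of the labelled tissue were present, with 6 of 6 markers of epithelium (summing to 1613 and 1418 TPM in replicates 2 and 1) and 5 of 5 of mesenchyme and smooth muscle (4300 and 4677 TPM) at TPM 1 or more in both libraries. Of markers of tissues rich in mitochondria, 1 of 4 for heart reached TPM 1 (Tnnt2, with Myh6 at 0.02 and 0.11 TPM), and brown fat had 0 of 2 (summing to 0.20 and 0.12 TPM). Liver markers summed to 61.7 and 55.7 TPM in replicates 2 and 1, with 2 of 3 at TPM 1 or more (Afp and Ttr). The third, Alb, was at 0.13 and 0.82 TPM in replicates 2 and 1. Skeletal muscle markers summed to 1.81 and 2.02 TPM in replicates 2 and 1, and kidney markers to 1.24 and 0.97 TPM. The 4 markers of exocrine pancreas summed to 837.6 TPM in replicate 2 and 3.72 TPM in replicate 1. Erythroid markers summed to 10893 TPM in replicate 2 and 7489 TPM in replicate 1. The labels give both sexes for each library, but Xist was at 0.06 TPM in replicate 2 and 77.2 TPM in replicate 1. The Y-linked Ddx3y was at 28.2 TPM in replicate 2 and had 0 counts in replicate 1. These values are those of male tissue in replicate 2 and female tissue in replicate 1. The part of these differences between the libraries in the values that follow was not tested. In whole tissue, fewer cells of a type and less RNA per cell cannot be told apart.

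All 22 tRNA genes had 0 estimated counts in both libraries. They are 59 to 75 bases long, shorter than the fragment length used in the tables, so their effective length was 0 and no level could be given. This holds for mt-Tf, mt-Tv, mt-Tl1, mt-Ti, mt-Tm, mt-Tw, mt-Td, mt-Tk, mt-Tg, mt-Tr, mt-Th, mt-Ts2, mt-Tl2 and mt-Tt on the plus strand. It holds as well for mt-Tq, mt-Ta, mt-Tn, mt-Tc, mt-Ty, mt-Ts1, mt-Te and mt-Tp, the 8 on the minus strand. Per the labels, the RNA was also above 200 nucleotides. The other 19 members (2 rRNA genes, 13 mRNA genes and 4 pseudogenes) were at TPM 1 or more in both libraries.

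The mt- genes summed to 31810 TPM in replicate 2 and 32673 TPM in replicate 1, which is 3.55% and 3.62% of the TPM of all genes. As a share of gene counts they held 1.89% in replicate 2 and 1.86% in replicate 1. The mRNA genes summed to 26109 and 27708 TPM in replicates 2 and 1, and the rRNA genes to 5701 and 4966 TPM. The 4 pseudogenes summed to 14410 TPM in replicate 2 and 15068 TPM in replicate 1, or 31.2% and 31.6% of the TPM of all members. Nearly 1 in 3 of the members' TPM was therefore assigned to nuclear copies that differ from the mitochondrial genes in a handful of bases.

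The rRNA genes encode the RNA of the small and the large subunit of the mitochondrial ribosome. Small-subunit mt-Rnr1 (ENSMUSG00000064337.1, chrM:70-1024) was at 1713 TPM in replicate 2 and 1432 TPM in replicate 1. Large-subunit mt-Rnr2 (ENSMUSG00000064339.1, chrM:1094-2675) was at 3988 TPM in replicate 2 and 3534 TPM in replicate 1. The ratio of the large to the small was 2.33 in replicate 2 and 2.47 in replicate 1. Neither gene shared a 100-base window with a nuclear transcript, and the labels used here do not say how rRNA was treated before sequencing.

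Among messages of complex V, the ATP synthase, mt-Atp6 was at 6422 TPM in replicate 2 and 6927 TPM in replicate 1, the highest deposited level of a mitochondrial gene in either library. Its neighbour mt-Atp8 was at 4843 TPM in replicate 2 and 5223 TPM in replicate 1, a ratio to mt-Atp6 of 0.754 in each. These 2 genes overlap by 43 bases and are known to be carried by a shared message. Together complex V genes held 11265 TPM in replicate 2 and 12150 TPM in replicate 1, more than any other complex as deposited.

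The 3 messages of complex IV, cytochrome c oxidase, encode the catalytic core of the enzyme. The deposited level of mt-Co1 was 2433 TPM in replicate 2 and 2900 TPM in replicate 1. That of mt-Co2 was 1553 and 1644 TPM in replicates 2 and 1, and that of mt-Co3 was 1974 and 1703 TPM. All 3 have a nuclear copy among the members, so these levels rest on how reads were divided, as described further on. The only message of complex III, mt-Cytb (cytochrome b), has no copy among the members and was at 2979 TPM in replicate 2 and 3180 TPM in replicate 1.

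The 7 messages of complex I, NADH dehydrogenase, spread most widely. Highest was mt-Nd1 at 2821 TPM in replicate 2 and 2869 TPM in replicate 1. Next came mt-Nd4 at 1196 and 1231 TPM and mt-Nd2 at 736 and 721 TPM in replicates 2 and 1. The remaining 4 were lower than these in both libraries. Values for mt-Nd6 were 454 TPM in replicate 2 and 481 TPM in replicate 1, and for mt-Nd5 395 and 429 TPM. Lowest as deposited were mt-Nd3 at 231 and 296 TPM and mt-Nd4l at 71.3 and 104.7 TPM in replicates 2 and 1. Complex I genes together held 5905 TPM in replicate 2 and 6131 TPM in replicate 1 as deposited.

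**Figure D1:**
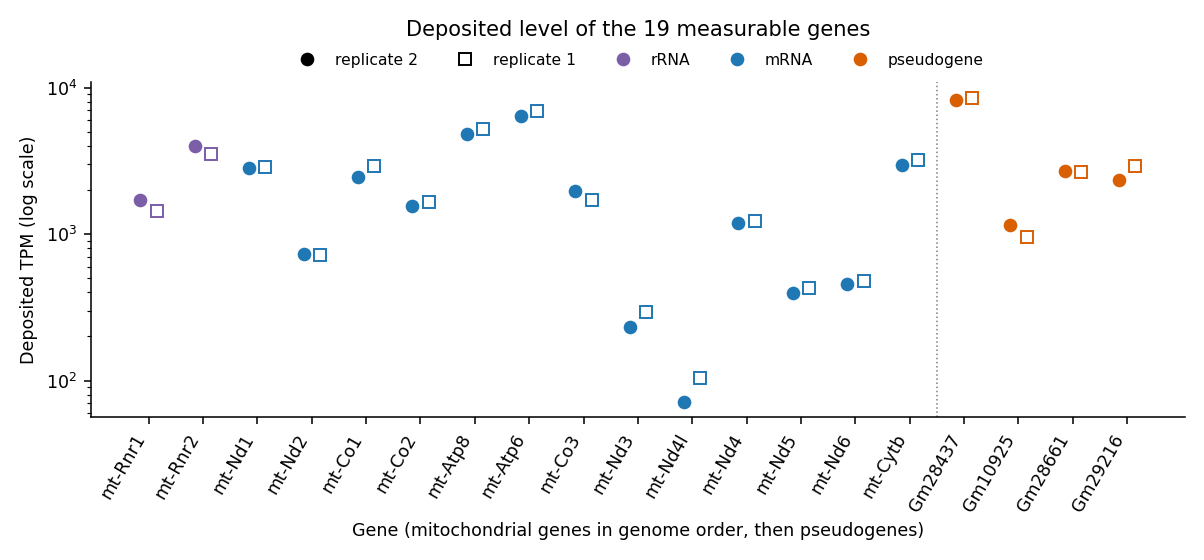
Deposited TPM (log scale) of the 19 measurable genes, with mitochondrial genes in genome order followed by the pseudogenes, as filled circles for replicate 2 and open squares for replicate 1. Gm28437 lies above every mitochondrial gene in both libraries, and mt-Nd4l is the lowest at 71.3 TPM in replicate 2 and 104.7 TPM in replicate 1.

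One message is read from the other strand. The gene mt-Nd6 (ENSMUSG00000064368.1, chrM:13552-14070) is the only mRNA gene on the minus strand, against 12 on the plus strand. Its level was 25.7% of the median of the other 12 messages in replicate 2 (median 1764 TPM) and 28.7% in replicate 1 (median 1673 TPM). With the counts of the 4 pseudogenes added to the genes they copy it was 15.7% in replicate 2 and 15.9% in replicate 1. It overlaps mt-Nd5 by 14 bases on opposite strands, and whether counting used strand is not given in the sources used here, so RNA transcribed antisense to mt-Nd6 may be included in its value.

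The highest and the lowest deposited message, mt-Atp6 and mt-Nd4l, differed 90.1-fold in replicate 2 and 66.2-fold in replicate 1. Across the 12 plus-strand messages, log2 TPM had a Pearson correlation of −0.23 and a Spearman correlation of −0.27 with position along the strand. This is a description over genes that share 1 genome and the same libraries, several of them overlapping. Ranked by mean TPM, 2 of the 14 neighbouring pairs of the 15 measured mitochondrial genes had ranges over the 2 libraries that overlapped, mt-Nd1 with mt-Co1 and mt-Co2 with mt-Rnr1. The other 12 neighbouring pairs did not overlap. These ranges span deposited TPM values only and leave out the uncertainty of dividing reads. By the deposited TPM intervals described further on, some of these 12 pairs did overlap. In both libraries these were mt-Atp6 with mt-Atp8, mt-Co1 with mt-Co3, mt-Co3 with mt-Co2 and mt-Nd3 with mt-Nd4l. Intervals of mt-Nd5 and mt-Nd3 overlapped in replicate 1 only, and those of the remaining pairs in neither.

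The pseudogenes were listed at high levels. Gm28437 (ENSMUSG00000101111.1) was at 8215 TPM in replicate 2 and 8539 TPM in replicate 1, the highest of all members. Gm28661 (ENSMUSG00000102070.1) was at 2692 and 2636 TPM in replicates 2 and 1, and Gm29216 (ENSMUSG00000101249.1) at 2341 and 2933 TPM. Gm10925 (ENSMUSG00000100862.1) was lowest of the 4, at 1161 TPM in replicate 2 and 959.9 TPM in replicate 1. Gm28437 was thus listed 4.16-fold above mt-Co3 in replicate 2 and 5.02-fold above it in replicate 1, although all 684 of its windows are also in mt-Co3.

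Each pair was therefore read as a whole. In addition to the expected count, which is not whole where reads fit several genes, the tables give a posterior mean count with its SD, a second estimate of the same quantity that averages over its plausible values. For mt-Co3 and Gm28437, 80.6% of the pair's expected counts in replicate 2 and 83.4% in replicate 1 were given to the pseudogene. By posterior mean the pseudogene held 64.1% and 63.7% in replicates 2 and 1. The sum of the pair was the same by both estimates, 163745 counts in replicate 2 and 162745 counts in replicate 1. The posterior SD was also the same in both partners, 36022 counts in replicate 2 and 37267 counts in replicate 1, which exceeded the whole expected count of mt-Co3 (31755 and 27089 counts in replicates 2 and 1).

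For 2 further pairs the sum was likewise steady and its division was not. Where reads are divided between only 2 genes, equal sums and equal posterior SDs follow from the division itself. Only the shares and the size of the SD are therefore informative. Gm28661 was given 63.3% and 61.5% of the expected counts of its pair with mt-Co2 in replicates 2 and 1, and 49.7% and 48.7% by posterior mean. The sums of this pair were 58150 counts in replicate 2 and 57964 counts in replicate 1, and differed between the estimates by 0.29 and 0.21 counts. Its posterior SD was 10587 and 10029 counts in replicates 2 and 1, the same in both partners. Gm10925 was given 15.2% and 12.1% of the expected counts of its pair with mt-Atp6 in replicates 2 and 1, and 22.5% and 23.7% by posterior mean. The sums were 103576 counts in replicate 2 and 106542 counts in replicate 1 by both estimates, with a posterior SD of 13257 and 13823 counts in both partners. The share given to the copy therefore ran between 12.1% and 83.4% over 3 pairs that all lack a distinguishing base within the copy.

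In the pair of mt-Co1 and Gm29216 the division was steady as well. Gm29216 was given 20.7% of the expected counts of the pair in replicate 2 and 21.6% in replicate 1, where the total includes the part of mt-Co1 that it does not copy, and the posterior mean gave the same percentages. Its posterior SD was 154 counts in replicate 2 and 158 counts in replicate 1. Here mt-Co1 has 1066 windows of 1446 that are not in Gm29216, and Gm29216 has 13 of its own. The other 380 of the 393 windows of Gm29216 are also in the mitochondrial genome. The small posterior SD therefore does not show where the shared reads arose. Per length, the level of Gm29216 was 0.962 of that of mt-Co1 in replicate 2 and 1.01 of it in replicate 1.

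**Figure D2:**
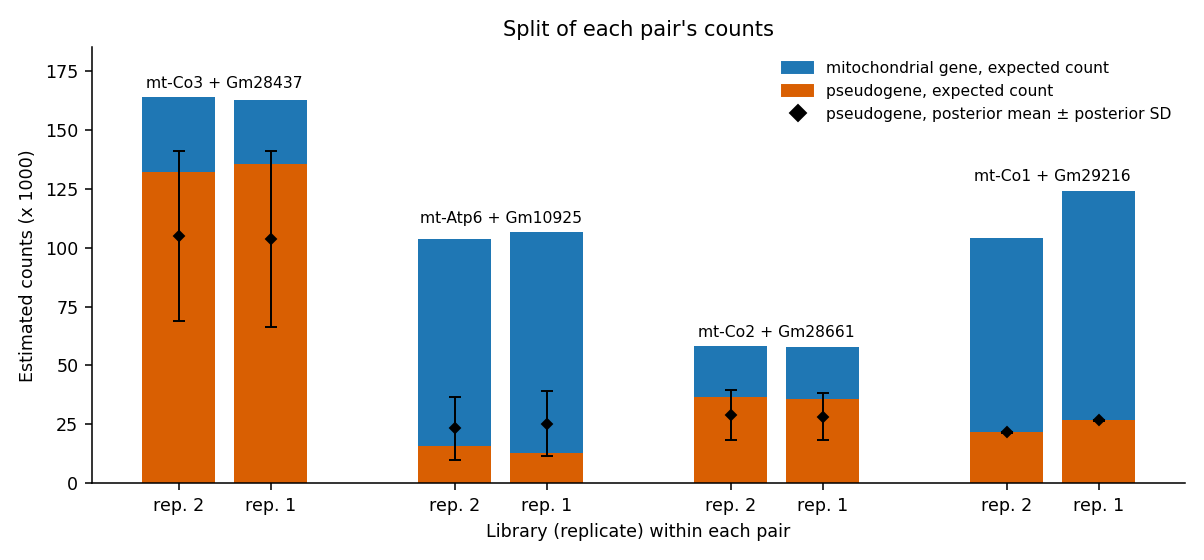
Estimated counts (in units of 1000) of each mitochondrial gene and its nuclear copy, stacked for replicate 2 and replicate 1, with the pseudogene's posterior mean ± posterior SD as diamonds with bars. The bars of the pair total are nearly equal in the libraries except for mt-Co1 with Gm29216, the only pair whose posterior SD is too small to be seen at this scale.

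The other copies in the block on chromosome 1 showed both patterns. Gm28438 was at 1167 TPM in replicate 2 and 1109 TPM in replicate 1 and held 83.3% and 78.7% of the counts of its pair with mt-Nd3. Gm10222 was at 675 and 645 TPM in replicates 2 and 1 and held 90.3% and 85.8% of the counts of its pair with mt-Nd4l. Gm28439 was at 0.36 TPM in replicate 2, from 6.48 counts, and had 0 counts in replicate 1. All of the 876 bases of Gm28439 are identical to mt-Nd4, but mt-Nd4 runs on for 502 windows that the copy lacks.

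The deposited 95% interval of TPM, which goes with the posterior mean and need not contain the deposited TPM, showed the same division. The 7 mitochondrial genes with no shared window (mt-Rnr1, mt-Rnr2, mt-Nd1, mt-Atp8, mt-Nd5, mt-Nd6 and mt-Cytb) had intervals 1.07% to 5.80% of the posterior mean wide, over both libraries. Only annotated transcripts were searched, and mt-Atp8 lies mostly between the stretches that Gm28661 and Gm10925 copy. The 5 genes with at most 6 windows of their own (mt-Co2, mt-Atp6, mt-Co3, mt-Nd3 and mt-Nd4l) had intervals 46.1% to 201% wide. The 3 between them, mt-Nd2, mt-Co1 and mt-Nd4, with 3.19% to 60.8% of windows shared, had intervals 1.42% to 3.13% wide. Interval width therefore separated genes with almost no sequence of their own from the rest, and did not grow steadily with the percentage shared.

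Intervals of the affected genes covered several-fold ranges. That of mt-Co3 ran from 1145 to 7217 TPM in replicate 2 and from 1076 to 7684 TPM in replicate 1. That of Gm28437 ran from 2708 to 8795 TPM in replicate 2 and from 2294 to 8914 TPM in replicate 1, overlapping that of mt-Co3 in both libraries. The interval of Gm29216, by contrast, ran from 2241 to 2329 TPM in replicate 2 and from 2813 to 2909 TPM in replicate 1. An interval at least 0.5 of the posterior mean wide in both libraries was found for 7 of the 19 measurable members, namely mt-Co2, mt-Co3, mt-Nd3, mt-Nd4l, Gm28437, Gm10925 and Gm28661. The same held for 324 of all 11324 genes at a mean of 5 TPM or more, or 2.86%.

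**Figure D3:**
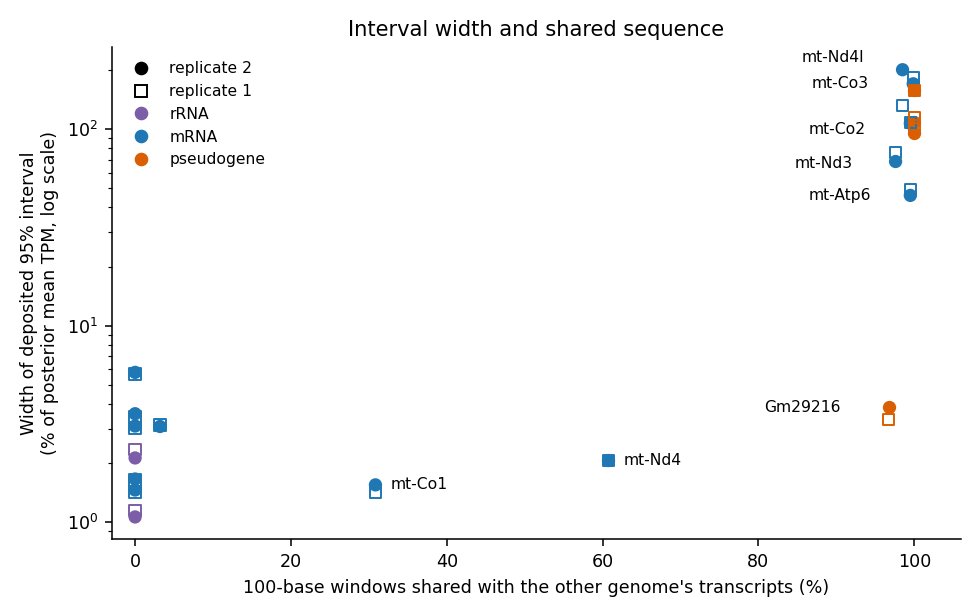
Width of the deposited 95% interval as a percentage of the posterior mean TPM (log scale) against the percentage of 100-base windows shared with transcripts of the other genome, for replicate 2 (filled circles) and replicate 1 (open squares). Genes with almost every window shared lie between 46.1% and 201%, except Gm29216, and all other genes lie at 5.80% or less.

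Adding the counts of each of the 4 pseudogenes to its mitochondrial gene changed the order of the messages. The level of mt-Co3 became 10203 ± 36.8 TPM (mean ± SD, n = 2), 5.55-fold its deposited mean of 1838 TPM, and moved it to rank 1 from rank 7 among the 15 measured genes. The level of mt-Co2 became 4249 ± 24.1 TPM, 2.66-fold its deposited mean, at rank 4. That of mt-Co1 became 3383 ± 444 TPM (1.27-fold) and that of mt-Atp6 7729 ± 216 TPM (1.16-fold). With these sums mt-Co3 stood above mt-Atp6 in both libraries, with no overlap of their ranges. Complex IV messages then summed to 17478 TPM in replicate 2 and 18192 TPM in replicate 1, above complex V at 12420 and 13104 TPM, where the deposited values had complex IV at 5960 and 6247 TPM and complex V above it.

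The levels of mt-Nd3 and mt-Nd4l changed when their copies, which are not members, were counted with them. With the counts of all 7 pseudogenes of the block added, mt-Nd3 was at 1388 ± 4.95 TPM, against a deposited mean of 264 TPM. In the same way mt-Nd4l was at 738 ± 2.50 TPM, against a deposited mean of 87.98 TPM. The genes mt-Nd4l and mt-Nd4 overlap by 7 bases and are known to share a message, and the ratio of mt-Nd4 to mt-Nd4l was 16.8 in replicate 2 and 11.8 in replicate 1 as deposited. With the 7 copies added it was 1.63 in replicate 2 and 1.66 in replicate 1. The ratio of mt-Atp8 to mt-Atp6, which also share a message, moved further from 1. It was 0.754 in each library as deposited, and 0.639 and 0.663 in replicates 2 and 1 with the copies added. With the 7 copies added, the highest and lowest messages, then mt-Co3 and mt-Nd5, differed 25.7-fold in replicate 2 and 23.9-fold in replicate 1. These sums assign every shared read to the mitochondrial gene, which is one limit of the possible divisions, and the origin of the reads was not tested.

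**Figure D4:**
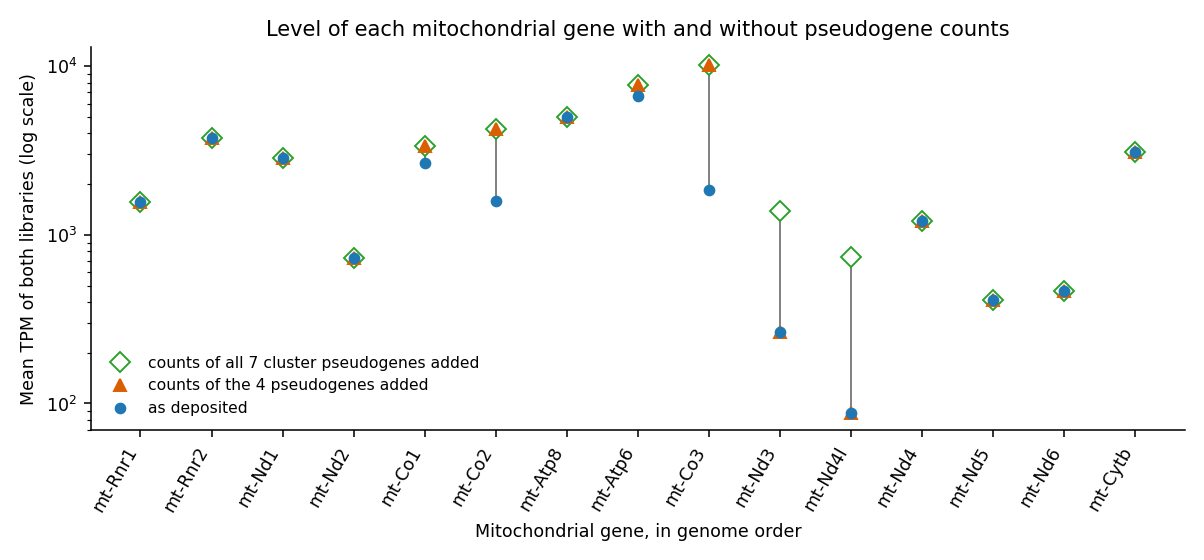
Mean TPM of both libraries (log scale) for each mitochondrial gene in genome order, as deposited (circles), with the counts of the 4 pseudogenes added (triangles) and with those of all 7 pseudogenes of the block added (open diamonds). The longest lines are those of mt-Co3, mt-Co2, mt-Nd3 and mt-Nd4l, and genes that none of these pseudogenes copies do not move.

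Over the 19 measurable members the median difference between the libraries in log2(TPM + 1), replicate 2 minus replicate 1, was −0.08, with a range of −0.55 to 0.27. The 3158 genes at a mean of 50 TPM or more had a median of −0.04 and a robust SD of 0.120. As deposited, 6 members were higher and 13 lower in replicate 2, which became 8 and 11 under factors from edgeR or DESeq2 and 4 and 15 under spike-in scaling, which shifts every gene of replicate 2 by −0.10. A difference of at least 1 with intervals that did not overlap was found for 0 of the 19 members, against 56 of 11324 genes, or 0.495%. Intervals alone did not overlap for 9 of the 19 (mt-Rnr1, mt-Rnr2, mt-Nd1, mt-Co1, mt-Atp8, mt-Nd4, mt-Nd5, mt-Cytb and Gm29216), against 2851 of 11324 genes, or 25.2%. Each interval was made within 1 library and does not cover the spread between embryos.

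Some members lay outside the usual spread of well-expressed genes. In 6 of the 19 the difference was more than 2 robust SD from the median of genes at a mean of 50 TPM or more, against 5.79% of those genes. Genes at a mean of 5 TPM or more had a median of −0.05 and a wider robust SD of 0.149. By that wider spread mt-Co3 and Gm29216 lay within 2 robust SD. As deposited, the 6 were mt-Rnr1 at 0.26, Gm10925 at 0.27, mt-Co3 at 0.21, Gm29216 at −0.32, mt-Nd3 at −0.35 and mt-Nd4l at −0.55. Of these, mt-Rnr1 is the only one that shares no 100-base window with a gene of the other genome. The other rRNA gene, mt-Rnr2, was also higher in replicate 2, at 0.17, and both kept that direction under all 3 scalings, the lowest values being 0.16 for mt-Rnr1 and 0.07 for mt-Rnr2 under spike-ins.

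Differences of single genes were smaller in several of the pair sums. The deposited difference was 0.21 for mt-Co3 and −0.06 for Gm28437, and −0.01 for their sum. For mt-Atp6 it was −0.11, for Gm10925 0.27 and for the sum −0.06. The sum of mt-Co2 and Gm28661 differed by −0.01. The sum of mt-Nd3 with its copy Gm28438 differed by −0.01, against −0.35 for mt-Nd3 alone. The sum of mt-Nd4l with its copy Gm10222 also differed by −0.01, against −0.55 for mt-Nd4l alone. Both partners of the remaining pair were lower in replicate 2, with −0.25 for mt-Co1, −0.32 for Gm29216 and −0.27 for the sum.

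**Figure D5:**
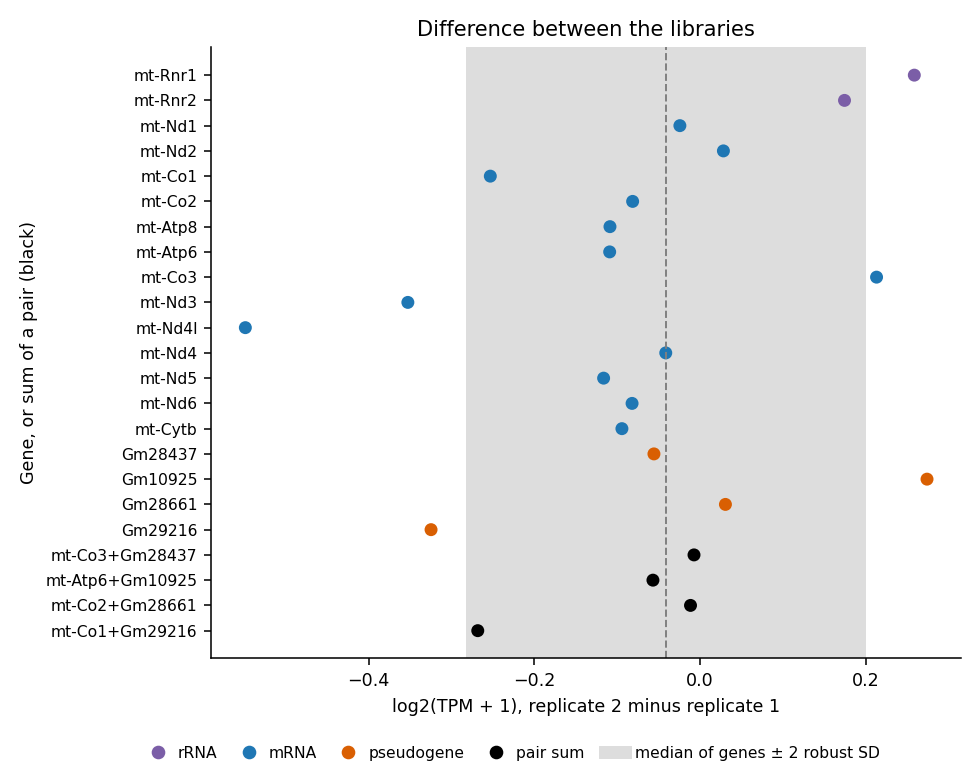
Difference in log2(TPM + 1), replicate 2 minus replicate 1, for each measurable gene (coloured by class) and for the sum of each pair (black). The grey band is the median ± 2 robust SD of the 3158 genes at a mean of 50 TPM or more and the dashed line their median of −0.04. Of the 4 pair sums shown, that of mt-Co1 with Gm29216 lies farthest from the line at −0.27.

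Nuclear genes that keep and read the mitochondrial genome were expressed throughout. Of a list of 36 genes for its upkeep, transcription, RNA processing and regulation, 36 were at TPM 1 or more in both libraries, against 13160 of 21461 nuclear protein-coding genes, or 61.3%. Their median was 24.7 TPM in replicate 2 and 25.8 TPM in replicate 1, against 18.0 and 18.8 TPM among the detected nuclear protein-coding genes. The highest mean, 229 TPM for Slirp, lay above the deposited mean of mt-Nd4l and below those of the other 14 measured mitochondrial genes. With the counts of the 7 copies added it lay below all 15.

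For transcription, 10 of 10 genes were detected. Tfam, which packages mitochondrial DNA and starts its transcription, was at 56.8 TPM in replicate 2 and 65.0 TPM in replicate 1. The terminator-family gene Mterf3 was at 44.1 and 49.3 TPM in replicates 2 and 1, and the mitochondrial RNA polymerase gene Polrmt at 32.6 and 30.9 TPM. For DNA upkeep, 5 of 5 were detected. The single-strand binding protein gene Ssbp1 led them at 125 TPM in replicate 2 and 118 TPM in replicate 1. The polymerase gamma gene Polg was at 26.3 and 24.2 TPM in replicates 2 and 1, and the exonuclease gene Mgme1 at 17.9 and 16.6 TPM.

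For RNA binding and stability, 9 of 9 genes were detected. Slirp, whose product binds messages together with that of Lrpprc, was at 234 TPM in replicate 2 and 224 TPM in replicate 1. Fastk was at 84.5 and 82.7 TPM in replicates 2 and 1, and Fastkd2 at 62.8 and 65.1 TPM. For cleavage, decay and tailing, 7 of 7 were detected. Hsd17b10, which encodes a subunit of the enzyme that cuts the 5′ ends of tRNAs, was at 169.5 TPM in replicate 2 and 170.5 TPM in replicate 1. The polynucleotide phosphorylase gene Pnpt1 was at 32.3 and 35.1 TPM in replicates 2 and 1, and the poly(A) polymerase gene Mtpap at 25.7 and 28.3 TPM. Of the nuclear regulators, 5 of 5 were detected, with Nrf1 at 41.6 TPM in replicate 2 and 49.0 TPM in replicate 1, Pprc1 at 39.2 and 37.9 TPM, and Gabpa at 24.7 and 30.1 TPM. No gene of the list differed between the libraries by 1 or more on the log2 scale. Such a difference with intervals apart was rare among all genes at a mean of 5 TPM or more, at 56 of 11324, or 0.495%.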

How the data were processed

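Per the file headers and labels, reads were placed on mm10 with GENCODE M4, and each library was quantified separately. Which aligner, quantifier and strand setting were used is not given in the sources used here. The authors deposited, for each gene, expected counts, TPM, posterior mean counts and TPM, the SD of the posterior count, and, taken here as scores, the bounds of a 95% interval of TPM. Symbols, coordinates and sequences came from GENCODE M21 on GRCm38, and 42462 of 43346 gene identifiers matched. The 96 spike-ins (10.4% of TPM in replicate 2 and 9.77% in replicate 1) and 26249 other features were left out of gene totals, but take part in the TPM scale.

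Shares, ratios, means and sums were computed from these values with Python 3.11.15. Where counts of a pair were added, the sum was divided by the effective length of the mitochondrial gene. Scaling alternatives used TMM factors of edgeR 4.0.16 and size factors of DESeq2 1.42.0, on expected counts of 19437 genes rounded to whole numbers, and 53 spike-ins. With 1 group of 2 libraries no test was made. The 3 highest genes per role, and the 5 highest non-member genes sharing a window, are named, while Gm13339 was named after its values were seen. Members and lists were chosen with earlier results of these data known. The rules were tested on simulated data. Deposited intervals cover counting error and the division of reads, and reads from amplified RNA are not independent molecules.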

Additional observations from a re-analysis of the deposited data

How the results depend on the processing

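The mean share of gene TPM held by mt- genes, 3.59% as deposited, was 3.68% by posterior mean TPM, 5.02% with the counts of the 4 pseudogenes added, 3.22% over all features, 1.88% of expected counts and 5.22% for mt- genes and pseudogenes together. The pseudogenes' share of member TPM, 31.4%, was 27.8% by posterior mean TPM and 25.4% of expected counts, and has no value once their counts are added elsewhere. The level of mt-Nd6 relative to the other messages, 27.2%, was 19.5% by posterior mean TPM and 15.8% with counts added. The fold between the highest and lowest message, 78.1, was 48.3 by posterior mean TPM, 120.3 with the 4 copies added and 24.8 with all 7. With intervals apart and no minimum difference, 9 members were counted in place of 0. The additions of all 7 copies, of pair sums, and of mt- genes with pseudogenes together were chosen after seeing the data. Detection, the rRNA ratio, the wide intervals and the shared windows moved by less than the spread between libraries, or by under 1.5 times for counts, under the alternatives run for them. The median difference between the libraries, −0.08 as deposited, was −0.03 under factors from edgeR or DESeq2 and −0.18 under spike-in scaling. It was 0 with no filter on low values, where the 22 tRNA genes without counts each enter at 0. Those genes fix that value, which says nothing about the measurable members. Leaving out either library gave shares of 3.55% and 3.62%. No paired analysis was possible because there is only 1 group. With 2 libraries the spread is poorly known. For mt-Co3, mt-Co2, mt-Atp6 and their copies the posterior SD given above, not the number of counts, sets the precision.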
